A study of Mus musculus with 17 samples.

Results

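The 10 genes described here are the transcription factor NRF2, encoded by Nfe2l2, and 9 antioxidant genes that it is known to drive: Nqo1, Hmox1, Gclc, Gclm, Txnrd1, Srxn1, Slc7a11, Gsr and Prdx1. They were chosen by name, with earlier results of these data known. All 10 were found among the 43430 gene IDs of each of 2 tables of read counts. The tables come from bulk RNA sequencing of 17 libraries of alveolar type 2 (AT2) cells, the surfactant-making epithelial cells of the lung, sorted by flow cytometry from C57BL/6J mice aged 2 months. Neither table was compared directly with the other, because they were made with different library kits.

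In the poly(A)-selected table, all libraries are named naive in their titles, so ISRIB was given to mice without bleomycin. Of these libraries, 4 came from mice given vehicle, with saline also named in their titles, and 4 from mice given ISRIB. The cells were taken 24 h afterwards. ISRIB is a small molecule that activates eIF2B and so relieves the block on translation that follows eIF2α phosphorylation, the integrated stress response. In the total-RNA table, 4 libraries came from naive mice and 5 from mice at day 14 after bleomycin, a drug that injures the alveolar epithelium and is used to model lung fibrosis. All 9 of these libraries carry vehicle as their treatment label and saline in their titles, so both groups share that part of their description. The labels state no dose. The labels do not say whether each library is 1 mouse or a pool, so the p-values below measure the spread between these libraries, which may be technical in part.

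NRF2 is held in the cytoplasm and degraded through KEAP1, and oxidants or electrophiles that modify KEAP1 let NRF2 accumulate and enter the nucleus. There it pairs with small MAF proteins on antioxidant response elements and drives genes of glutathione synthesis and recycling, the thioredoxin system, haem breakdown and quinone detoxification. In the alveolus these systems deal with inhaled oxidants and with oxidants made in injury. Because NRF2 is controlled mainly through its protein, the mRNA levels given here do not measure its activity. ATF4, the transcription factor whose translation rises in the integrated stress response, drives an overlapping set of genes that includes Slc7a11.

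The antioxidant response element is the sequence that ties these genes together, so the promoter stretches that hold its core are shown first. RefSeq promoter windows on GRCm38.p6, running from 250 bases before to 50 bases after a transcription start, were found for 7 of the 10 genes. Each window was searched on both strands for the core written as TGACNNNGC or TGAGNNNGC, where N is any base. These genes had 9 windows, 3 of them for starts of Txnrd1 and 1 for each other gene. A core upstream of the start was found in 6 of the 9 windows, those of Nfe2l2, Gclm, Srxn1, Slc7a11 and Prdx1 and 1 of the Txnrd1 windows. Cores of this loose form are common, and 27.8% of 32851 mouse windows of the same length hold at least 1, before or after the start. Counted in that way, 6 of the 9 windows of these genes held a core. In the sequences below, read 5′ to 3′ along the gene's own strand, capitals mark the core or its reverse complement.
Nfe2l2, chr2:75704865-75704913, minus strand: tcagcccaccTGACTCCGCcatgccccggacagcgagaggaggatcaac
Gclm, chr3:122245393-122245461, plus strand: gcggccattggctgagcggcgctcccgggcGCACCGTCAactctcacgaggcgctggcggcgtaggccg
Txnrd1, chr10:82859084-82859152, plus strand: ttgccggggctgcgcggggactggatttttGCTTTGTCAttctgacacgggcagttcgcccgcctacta
Srxn1, chr2:152105336-152105517, plus strand: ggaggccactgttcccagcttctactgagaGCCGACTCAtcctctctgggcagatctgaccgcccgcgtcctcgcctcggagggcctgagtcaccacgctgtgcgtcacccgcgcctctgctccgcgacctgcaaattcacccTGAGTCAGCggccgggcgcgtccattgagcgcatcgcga
Slc7a11, chr3:50443672-50443740, minus strand: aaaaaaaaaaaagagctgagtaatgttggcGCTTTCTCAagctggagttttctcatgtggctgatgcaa
Prdx1, chr4:116685436-116685504, plus strand: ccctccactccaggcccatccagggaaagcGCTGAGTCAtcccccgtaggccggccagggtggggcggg

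Srxn1 had 2 upstream cores, at 158 to 150 and at 45 to 37 bases before its start, and the second overlaps the AP-1 motif TGAGTCA. The Prdx1 core lies 133 to 125 bases before the start and overlaps the same AP-1 motif, which 5.2% of all windows hold. The Gclm core lies at 134 to 126 bases, the Slc7a11 core at 97 to 89 bases, the Txnrd1 core at 92 to 84 bases and the Nfe2l2 core at 240 to 232 bases before the start. The Nqo1 window held no core, and sequence beyond the windows was not searched for any gene. A match is a description of letters and not a measured binding site.

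Depth and cell markers touch all results below. Counts summed to 10493574 to 15727139 per poly(A) library and to 3295257 to 6333166 per total-RNA library. Levels are CPM, counts scaled to the library total after TMM adjustment, except that marker levels use the plain totals. A fold change is the ratio between groups after TMM scaling, given as log2 with its standard error (SE), and was tested with edgeR's quasi-likelihood test with Benjamini-Hochberg adjustment over all genes tested in that table; a gene is called changed at an adjusted p under 0.05. Sftpc, the defining AT2 transcript, was at 35776 to 38890 CPM in naive and 18806 to 39251 CPM in bleomycin libraries, and the immune marker Ptprc did not exceed 1.70 CPM in any total-RNA library. After bleomycin the summed level of 10 mesenchymal markers ranged from 19.3 to 130.4 CPM against 5.37 to 13.05 CPM in naive libraries, with Col1a1 at 3.95 to 54.4 against 0.291 to 2.73 CPM. The sum of 15 macrophage and monocyte markers ranged from 45.1 to 75.0 against 17.4 to 27.6 CPM, but few of them carried it. Only 3 of the 15 had enough counts to be tested, and 1 was called higher. No counts were found for 6 of them in bleomycin and for 2 in naive libraries. Csf1r was at 0.188 to 3.64 against 0.645 to 3.58 CPM, and Cd68 at 2.55 to 6.32 against 2.91 to 3.44 CPM. Mrc1 was at 0.339 to 1.54 against 0.607 to 1.75 CPM. The sum of 9 endothelial markers ranged from 24.9 to 90.9 against 22.4 to 32.5 CPM. That of 8 alveolar type 1 markers ranged from 2126 to 2455 against 1260 to 1505 CPM. Fewer cells of a type and less RNA per cell cannot be told apart in bulk samples, and the part of these other cells in the changes below was not tested.

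The 10 genes spanned a wide range of levels. Values compared between genes are CPM per kilobase of each gene's merged exons, a length that exceeds that of single transcripts. Gclc, which encodes the catalytic subunit of glutamate-cysteine ligase, the rate-limiting enzyme of glutathione synthesis, was the highest in every group, at 238 ± 4.73 CPM per kb (SD, n = 4) in vehicle and 171 ± 22.6 CPM per kb (SD, n = 4) in naive libraries. By mean CPM it ranked 81st of the 12054 genes tested in the poly(A) table and 80th of the 11223 tested in the total-RNA table. In vehicle libraries Prdx1 followed at 92.5 ± 3.06 and Nfe2l2 at 85.3 ± 3.32 CPM per kb, and the ranges of these neighbours overlapped. Hmox1 was at 52.2 ± 3.97, Gsr at 25.3 ± 1.39, Txnrd1 at 21.7 ± 1.15 and Srxn1 at 9.69 ± 1.34 CPM per kb. Gclm, which encodes the modifier subunit that partners Gclc, was at only 4.53 ± 0.276 CPM per kb.

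The 2 lowest genes were Nqo1, a quinone reductase often used as a readout of NRF2 activity, at 1.23 ± 0.612 CPM per kb, and Slc7a11, the cystine transporter subunit xCT, at 0.0504 ± 0.0324 CPM per kb (SD, n = 4 vehicle libraries). In naive libraries Nfe2l2 at 49.9 ± 1.38 stood above Prdx1 at 32.2 ± 2.92 CPM per kb, and the Prdx1 and Hmox1 ranges overlapped, with Hmox1 at 27.2 ± 5.05 CPM per kb (SD, n = 4). Below them came Txnrd1, Gsr, Srxn1, Gclm, Nqo1 and Slc7a11 in descending order, from 15.6 ± 0.906 down to 0.0337 ± 0.0127 CPM per kb. In ISRIB libraries the means of Nfe2l2 and Prdx1, at 98.6 ± 9.33 and 91.8 ± 4.57, and of Txnrd1 and Gsr, at 22.8 ± 1.98 and 22.6 ± 1.23 CPM per kb (SD, n = 4), lay within their spread of each other. In bleomycin libraries Nfe2l2 followed Gclc at 69.0 ± 4.29, ahead of Prdx1 at 49.6 ± 8.43 and Hmox1 at 32.8 ± 6.75, and Txnrd1 and Gsr could not be ordered, at 18.4 ± 3.16 and 18.3 ± 4.13 CPM per kb (SD, n = 5).

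**Figure D1:**
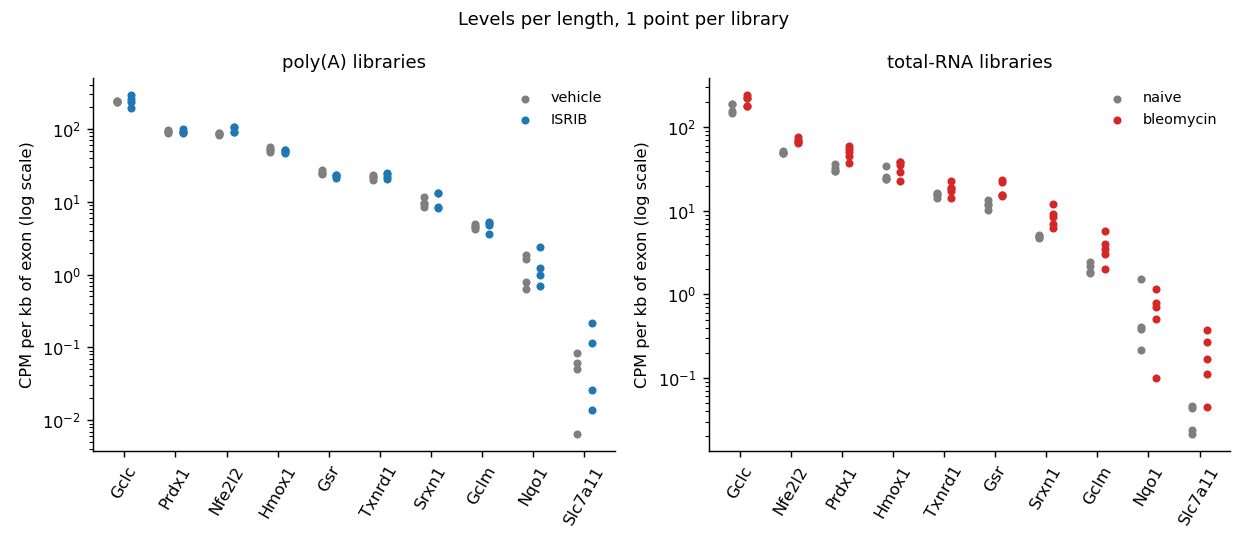
Level of each of the 10 genes in CPM per kilobase of exon, on a log axis, with 1 point per library and the 4 groups set apart. Gclc is the highest in all 4 groups, at a mean of 238 CPM per kb in vehicle libraries, and Slc7a11 the lowest, at 0.0504 CPM per kb; values from the 2 kits are not comparable with each other.

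The first comparison asked how the genes differed at day 14 after bleomycin. Nfe2l2 and 4 of its targets, Gclm, Srxn1, Gsr and Prdx1, rose by 1.38-fold to 1.79-fold. These 5 were called among the 8 members with enough counts to be tested, all higher, where 11.2% of the 11223 genes tested were called higher, 9.31% lower and 20.5% in either direction. Gclc, Txnrd1 and Hmox1 were tested and not called, and Nqo1 and Slc7a11 were too low to be tested. At an unadjusted p under 0.05, 6 of the 8 passed, against 33.3% of all genes tested. All 8 log2 fold changes were above 0, against 50.2% of all genes. Their median was 0.54, and that of all genes tested was 0.0026. The members were chosen with earlier results of these data known, so these shares describe the list and are no test of it. The same holds for the share of groups without overlap given below. Each of the 8 had at least 38 counts in every naive and bleomycin library, so none entered through the bleomycin group alone.

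Nfe2l2 (ENSMUSG00000015839; GRCm38, chromosome 2, 75675513 to 75704641, minus strand) was at 189, 197, 186 and 186 CPM in the naive libraries and at 251, 267, 287, 245 and 260 CPM in the bleomycin libraries. All 5 bleomycin libraries were above all 4 naive ones. The mean went from 189 ± 5.24 (SD, n = 4) to 262 ± 16.3 CPM (SD, n = 5). The log2 fold change was 0.47 (SE 0.10), a 1.38-fold rise with a 95% interval of 1.19 to 1.61 and an edgeR adjusted p of 0.00346.

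Among the genes of glutathione synthesis, only the modifier subunit was called, and the substrate transporter could not be tested. Gclm (ENSMUSG00000028124; chromosome 3, 122245557 to 122270732, plus strand) was at 13.8, 15.2, 11.4 and 11.6 CPM in naive and at 19.3, 35.7, 22.3, 12.7 and 25.5 CPM in bleomycin libraries. The groups overlapped, because bleomycin replicate 4 lay within the naive range. The mean went from 12.99 ± 1.8 (SD, n = 4) to 23.1 ± 8.5 CPM (SD, n = 5), with a log2 fold change of 0.84 (SE 0.25), or 1.79-fold (95% interval 1.24 to 2.58), and an edgeR adjusted p of 0.0234. This call is the least secure of the 5: the adjusted p was 0.0661 without bleomycin replicate 2, and 0.0520, 0.0732 and 0.0781 without naive replicates 1, 3 and 4. Some reads could belong to other models, since 4.71% of the Gclm exon bases overlap a gene on the opposite strand and 3.88% a pseudogene on the same strand, and the labels do not say whether counting used strand.

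Gclc (ENSMUSG00000032350; chromosome 9, 77754535 to 77794485, plus strand) was at 553, 588, 711 and 719 CPM in naive and at 839, 679, 909, 849 and 685 CPM in bleomycin libraries. Bleomycin replicates 2 and 5 lay within the naive range and the other 3 lay above it. With a log2 fold change of 0.30, a 95% interval of 0.03 to 0.57 and an edgeR adjusted p of 0.108, Gclc was not called. The abundance of Gclc over Gclm per kb was 84.8 ± 21.9 in naive (SD, n = 4) and 65.8 ± 30.7 in bleomycin libraries (SD, n = 5). It varied widely among the bleomycin libraries, from 31.7 in replicate 2 to 112 in replicate 4.

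Slc7a11 (ENSMUSG00000027737; chromosome 3, 49892526 to 50443614, minus strand) imports cystine, the precursor of the cysteine that glutathione synthesis needs. It had 1, 3, 2 and 1 counts in the naive libraries and 14, 29, 4, 5 and 15 counts in the bleomycin libraries. As CPM these were 0.335, 0.641, 0.601 and 0.298 against 3.70, 5.23, 0.619, 1.55 and 2.38, so that bleomycin replicate 3 lay within the naive range and the other 4 above it. Summed over libraries, 67 counts stood against 7, and the ratio of CPM was 5.42 with an exact 95% interval of 2.49 to 14.0 that covers counting error only. Without a filter on low counts, edgeR gave Slc7a11 an adjusted p of 0.0457, and the filtered tests that left out naive replicate 1, 3 or 4 admitted the gene at adjusted p-values of 0.0791, 0.0623 and 0.0884. In those filtered tests Slc7a11 passed the filter only through the bleomycin libraries, where it is high, so their p-values are no support for a change. No change is therefore called for Slc7a11 here.

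Of the 4 genes that recycle glutathione and reduce peroxides, Gsr, Prdx1 and Srxn1 were called higher and Txnrd1 was not called. Gsr (ENSMUSG00000031584; chromosome 8, 33652523 to 33698163, plus strand), glutathione reductase, was at 32.9, 37.6, 32.1 and 28.0 CPM in naive and at 41.0, 60.6, 42.7, 64.7 and 42.4 CPM in bleomycin libraries. The groups did not overlap, and bleomycin replicates 2 and 4 stood above the other 3. On the log2 scale the change was 0.61 (SE 0.17), or 1.53-fold (95% interval 1.2 to 1.96), with an edgeR adjusted p of 0.0144. The call was lost without naive replicate 4, at an adjusted p of 0.0653.

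Prdx1 (ENSMUSG00000028691; chromosome 4, 116685544 to 116700822, plus strand), a peroxiredoxin that reduces hydrogen peroxide, was at 99.0, 110.04, 91.0 and 91.5 CPM in naive and at 115, 182, 166, 152 and 139 CPM in bleomycin libraries. The groups did not overlap, although bleomycin replicate 1 came close to naive replicate 2. On the log2 scale the change was 0.62 (SE 0.13), or 1.54-fold (95% interval 1.27 to 1.87), with an edgeR adjusted p of 0.00274, the lowest among the 10 genes. Reads of Prdx1 could be shared with its processed pseudogenes, depending on how the authors' counting treated multiple matches.

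Srxn1 (ENSMUSG00000032802; chromosome 2, 152105516 to 152111376, plus strand) encodes sulfiredoxin, which restores peroxiredoxins such as Prdx1 after overoxidation, and its promoter holds both of the cores shown above. It was at 13.4, 13.9, 14.4 and 14.0 CPM in naive and at 17.5, 33.9, 19.5, 23.8 and 25.7 CPM in bleomycin libraries. The naive libraries were tightly grouped and every bleomycin library stood above them. The mean went from 13.9 ± 0.41 (SD, n = 4) to 24.1 ± 6.41 CPM (SD, n = 5), with a log2 fold change of 0.79 (SE 0.21), or 1.73-fold (95% interval 1.27 to 2.35), and an edgeR adjusted p of 0.0119. Txnrd1 (ENSMUSG00000020250; chromosome 10, 82833951 to 82897712, plus strand), the cytosolic thioredoxin reductase, was at 117, 114, 102 and 110.3 CPM in naive and at 134, 162, 134, 100.6 and 121 CPM in bleomycin libraries. Bleomycin replicate 4 was below all naive libraries and the other 4 were above them. Its log2 fold change of 0.24 had a 95% interval of -0.03 to 0.51 and an edgeR adjusted p of 0.21, so it was not called.

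Hmox1 (ENSMUSG00000005413; chromosome 8, 75093621 to 75100589, plus strand), the haem-degrading enzyme haem oxygenase 1, was at 60.7, 42.7, 42.0 and 44.7 CPM in naive and at 39.4, 67.1, 62.3, 66.5 and 51.6 CPM in bleomycin libraries. Naive replicate 1 stood well above the other 3, and bleomycin replicate 1 was the lowest of all 9. Its log2 fold change of 0.28 had a 95% interval of -0.07 to 0.63 and an edgeR adjusted p of 0.262. Hmox1 is also strongly expressed by macrophages, whose summed markers are given above, and their part in its level was not tested. Nqo1 (ENSMUSG00000003849; chromosome 8, 107388225 to 107403206, minus strand) had 14 counts over the naive and 25 over the bleomycin libraries, at 0.994 ± 0.949 CPM (SD, n = 4) and 1.02 ± 0.606 CPM (SD, n = 5). The ratio of CPM was 1.01 with an exact 95% interval of 0.506 to 2.11 for counting error only, so a change was not detectable at this depth.

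**Figure D2:**
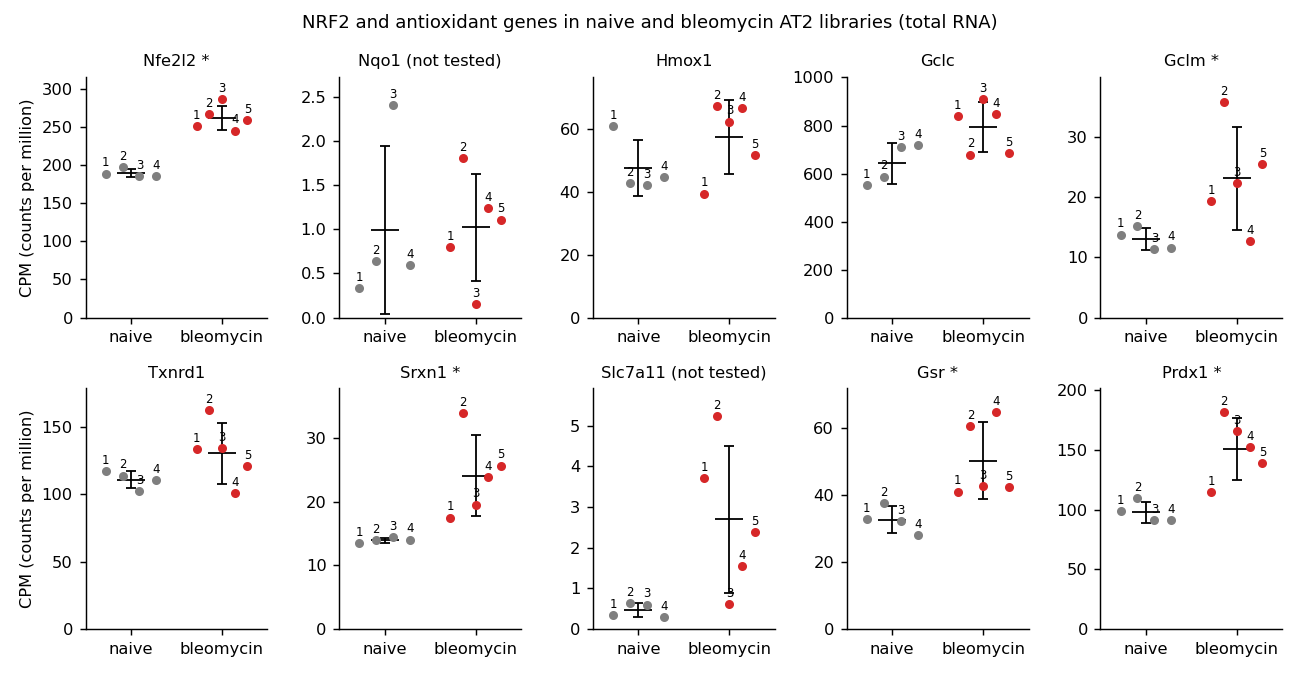
CPM of each of the 10 genes in the 4 naive and 5 bleomycin libraries, 1 numbered point per library (the number is the replicate) with black marks for the mean and SD, on axes of their own; a star marks an adjusted p under 0.05. The bleomycin libraries sit wholly above the naive ones for Nfe2l2, Srxn1, Gsr and Prdx1, and for Gclm all but replicate 4 do.

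The groups did not overlap for 4 of the 8 tested members, Nfe2l2, Srxn1, Gsr and Prdx1, all higher after bleomycin, where 10.4% of all genes tested were higher without overlap, 9.35% lower and 19.7% in either direction. The bleomycin libraries also differed among themselves. Replicate 2 held the highest value for 5 of the 8 tested members, replicate 1 the lowest for 4 and replicate 4 the lowest for 3. Averaged over the 8 members, the log2 difference from the naive mean was 0.28 in replicate 1, 0.77 in replicate 2, 0.52 in replicate 3, and 0.44 in each of replicates 4 and 5. Replicates 1 and 2 also had the lowest summed AT2 markers, at 49754 and 62632 CPM against at least 80556 in naive libraries, and replicate 2 had the highest mesenchymal marker sum. With both left out, the log2 fold changes of Nfe2l2, Srxn1, Gsr and Prdx1 remained called, Gclm was lost at an edgeR adjusted p of 0.0649 and Gclc was gained at 0.0493.

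The second comparison asked whether the same genes differed 24 h after ISRIB. None of the 9 members with enough counts to be tested was called, where 2.2% of the 12054 genes tested were called, 1.1% higher and 1.1% lower. The unadjusted p was under 0.05 for 2 of the 9, Nfe2l2 on the high side and Gsr on the low side, where 16% of all genes passed. DESeq2 called 1 member, Nfe2l2, and limma-voom called 0. The median log2 fold change of the 9 was 0.07, with 6 above 0 (50% of all genes) and 3 below, and it became -0.01 without ISRIB replicate 2. Groups did not overlap for 2 of the 9, Nfe2l2 and Gsr, as for 8.65% of all genes.

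Nfe2l2 was at 322, 328, 308 and 338 CPM in vehicle and at 344, 343, 409 and 401 CPM in ISRIB libraries. All 4 ISRIB libraries were above all 4 vehicle libraries, as was the case for 4.26% of all genes tested. The mean was 324 ± 12.6 in vehicle and 374 ± 35.4 CPM in ISRIB libraries (SD, n = 4 each), and the log2 fold change was 0.21 with a 95% interval of 0.07 to 0.34. The edgeR adjusted p was 0.1001, so Nfe2l2 was not called. Over the alternative fits the adjusted p ranged from 0.0207 to 0.241, and it passed the threshold without a filter on low counts and with DESeq2, at 0.0466.

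Gsr was at 67.9, 75.3, 68.2 and 67.0 CPM in vehicle and at 64.6, 62.7, 57.4 and 64.7 CPM in ISRIB libraries. Every ISRIB library was below every vehicle library, as for 4.39% of all genes tested. Its log2 fold change was -0.16, with a 95% interval of -0.29 to -0.03 and an edgeR adjusted p of 0.213, so it was not called.

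Neither glutamate-cysteine ligase gene was called. Gclc was at 905, 893, 876 and 918 CPM in vehicle and at 718, 968, 876 and 1086 CPM in ISRIB libraries. The ISRIB values spread to either side of the vehicle values, with a coefficient of variation of 17% against 1.98%. The log2 fold change of Gclc was 0.02 with a 95% interval of -0.16 to 0.21 and an edgeR adjusted p of 0.943. Gclm was at 30.6, 28.0, 26.4 and 28.8 CPM in vehicle and at 30.01, 33.6, 22.7 and 32.5 CPM in ISRIB libraries, again with ISRIB values on either side. Its log2 fold change was 0.07 with a 95% interval of -0.15 to 0.28. The Gclc to Gclm ratio per kb was 52.8 ± 2.49 in vehicle and 52.1 ± 10.5 in ISRIB libraries (SD, n = 4 each).

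Slc7a11, at the foot of the range, had 8, 1, 13 and 12 counts in vehicle and 3, 37, 4 and 18 counts in ISRIB libraries. ISRIB replicate 2 alone gave 37 of the 62 ISRIB counts. The ratio of summed CPM was 1.73 with an exact 95% interval of 1.12 to 2.71 for counting error only, and it turned to 0.923 (0.528 to 1.59) without that library. Nqo1 was at 1.23, 2.53, 0.983 and 2.91 CPM in vehicle and at 1.09, 3.68, 1.52 and 1.93 CPM in ISRIB libraries, and its log2 fold change of 0.13 had a 95% interval of -0.71 to 0.97. As a fold change that interval ran from 0.611 to 1.96, so a change in either direction within it was not detectable.

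Srxn1 was at 32.6, 26.3, 26.7 and 23.7 CPM in vehicle and at 23.5, 37.6, 23.2 and 37.5 CPM in ISRIB libraries. ISRIB replicates 2 and 4 were above every vehicle library and replicates 1 and 3 below every one. The log2 fold change of Srxn1 was 0.15 with a 95% interval of -0.16 to 0.46 and an edgeR adjusted p of 0.688. Txnrd1 was at 143 to 163 CPM in vehicle and 145 to 174 CPM in ISRIB libraries, with a log2 fold change of 0.07 and a 95% interval of -0.06 to 0.21. Prdx1 was at 269 to 290.4 CPM in vehicle and 265 to 298 CPM in ISRIB libraries, with a log2 fold change of -0.01 and a 95% interval of -0.12 to 0.10. Hmox1 was at 83.3 to 99.6 CPM in vehicle and 81.1 to 88.9 CPM in ISRIB libraries, with a log2 fold change of -0.09 and a 95% interval of -0.22 to 0.04. The groups overlapped for these 4 genes.

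**Figure D3:**
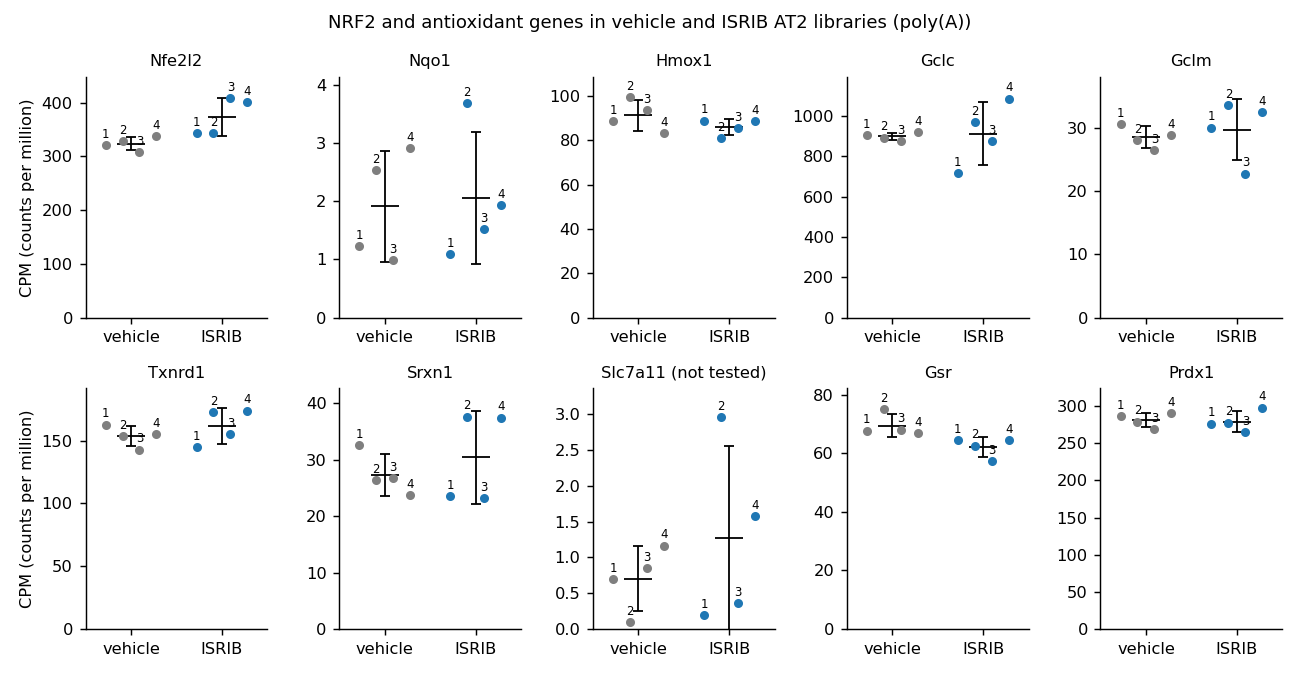
CPM of each of the 10 genes in the 4 vehicle and 4 ISRIB libraries, drawn as for bleomycin, with 1 numbered point per library and black marks for the mean and SD. No gene has a star; Nfe2l2 lies wholly higher and Gsr wholly lower with ISRIB, while Gclc and Srxn1 spread to both sides of the vehicle libraries.

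A split within the ISRIB group ran through several members. ISRIB replicates 2 and 4 held the 2 highest ISRIB values for 6 of the 9 tested members, Nqo1, Gclc, Gclm, Txnrd1, Srxn1 and Prdx1. The same 2 libraries were the 2 highest for 21.6% of all genes tested. The exceptions were Hmox1 and Gsr, highest in replicates 1 and 4, and Nfe2l2, highest in replicates 3 and 4. The summed airway markers were lower in these libraries, at 3431 CPM in replicate 2 and 2456 CPM in replicate 4, against 4253 and 4078 CPM in replicates 1 and 3. Summed AT2 markers were also lower, at 183040 and 182000 against 190650 and 189300 CPM. Macrophage and monocyte markers were higher, at 88.0 and 92.9 against 77.5 and 79.1 CPM. So were endothelial markers, at 62.4 and 59.7 against 55.6 and 52.5 CPM. The lymphocyte sum was higher too, at 17.8 and 17.4 against 15.8 CPM in each of the others. No counts were found for 9 of its 11 markers in ISRIB libraries and only 1 was tested, so it says little about lymphocytes. Mesenchymal and neutrophil sums did not follow the split, being highest in replicate 2 and lowest in replicate 4. Alveolar type 1 markers did not either, at 2471 and 2520 against 2614 and 2478 CPM. The part of any of these in the split was not tested.

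**Figure D4:**
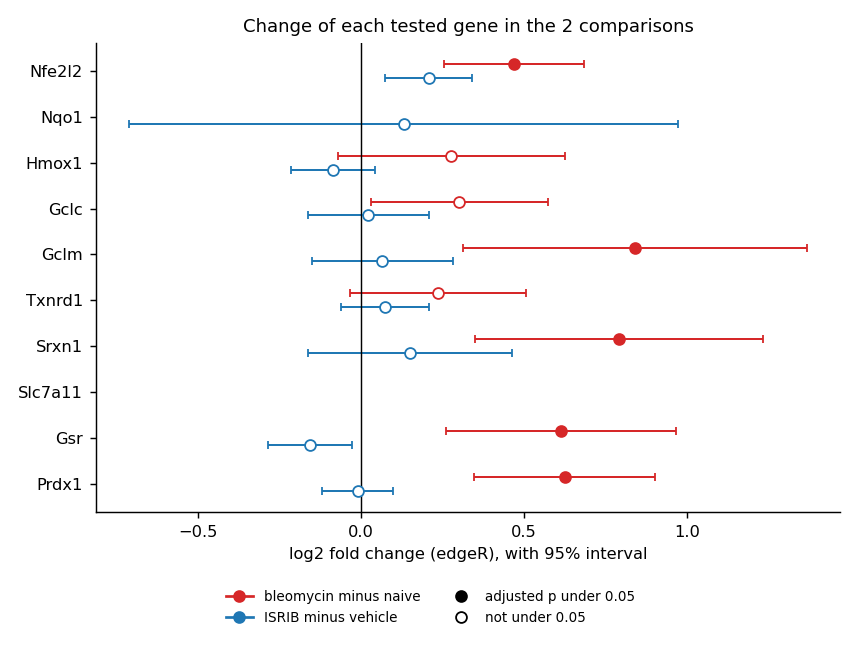
Log2 fold change of each tested member with its 95% interval, for bleomycin against naive and for ISRIB against vehicle; filled points have an adjusted p under 0.05. All 8 bleomycin points lie above 0 and 5 are filled, and the 9 ISRIB points lie between -0.16 and 0.21 with none filled; the difference between the 2 comparisons, which come from different kits, was not tested.

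The wider redox pathways were followed with 7 lists of other genes, 107 in all, also chosen with earlier results of these data known. After bleomycin 28 of the 102 tested were called (27.5%), 20 higher (19.6%) and 8 lower (7.84%), beside 11.2% higher and 9.31% lower over all genes tested. Of the 20 called higher, 6 (30%) passed the filter on low counts only with the help of the bleomycin libraries, where they are high: Gpx3, Gsto1, Sod3, Me2, Mthfd2 and Cbr3. The same held for 23.7% of the 1259 genes called higher over the whole table. A gene that enters this way was admitted by being high in 1 group, so the calls and p-values of these 6 are given below only as description. Their share of the calls supports nothing about the lists, and the counts of calls per list below include them. Of the 8 called lower, 1, Aldh3a1, passed only with the help of the naive libraries, so its call and p-values are description too. Among 13 tested regulators and partners of NRF2, 1 was called, Sesn2, a stress-induced protein linked to peroxiredoxin repair, which rose from 19.9 ± 3.48 (SD, n = 4) to 36.2 ± 6.33 CPM (SD, n = 5; log2 fold change 0.85, edgeR adjusted p = 0.00246). The KEAP1 gene itself, named here for its role and after its values were seen, was at 37.0 ± 5.55 in naive and 38.4 ± 5.97 CPM in bleomycin libraries, with an edgeR adjusted p of 0.864.

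Of 22 tested genes of glutathione synthesis, use and transfer, 4 were called higher and 1 lower. The glutathione peroxidase Gpx1 rose from 95.6, 105, 86.2 and 89.4 CPM to 120.1, 184, 177, 122 and 178 CPM, without overlap (log2 fold change 0.73, edgeR adjusted p = 0.00148). The secreted peroxidase Gpx3 had 0 to 4 counts per naive library and 5 to 36 per bleomycin library, at 0.588 ± 0.414 (SD, n = 4) and 3.78 ± 1.79 CPM (SD, n = 5). The glutathione transferase Gsto1 had 2 to 11 and 15 to 122 counts, and 22.0 CPM in bleomycin replicate 2 stood far above the other bleomycin libraries. Its log2 fold change went from 2.07 (edgeR adjusted p = 0.0132) to 1.43 without that library (0.0550), and its call was also lost without naive replicate 2 (0.0536) and with limma-voom (0.0638). Slc3a2, listed here as the partner chain of Slc7a11 in cystine import, was called in both comparisons. Slc7a11 itself was too low to be tested in either, at 0.702 ± 0.451 CPM in vehicle libraries beside 171 ± 8.15 CPM for Slc3a2 (SD, n = 4). The rise of Slc3a2 is therefore no measure of cystine import. With ISRIB, Slc3a2 was at 226, 185, 231 and 229 CPM against 161, 170.3, 174 and 180.0 CPM in vehicle libraries, without overlap. Its log2 fold change was 0.35 (SE 0.07, edgeR adjusted p = 0.0137). That call was lost without vehicle replicate 1, at an adjusted p of 0.0566. After bleomycin its log2 fold change was 0.40, with an edgeR adjusted p of 0.0217, and the groups overlapped.

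Of 20 tested genes of the thioredoxin, peroxiredoxin and glutaredoxin families, 4 were called higher and 1 lower. The endoplasmic reticulum peroxiredoxin Prdx4 rose from 15.4, 13.03, 9.91 and 9.84 CPM to 25.7, 37.2, 22.9, 24.4 and 25.8 CPM, without overlap (log2 fold change 1.18, edgeR adjusted p = 6.72e-04). Txnl1, a thioredoxin-like protein, rose from 29.5 ± 2.5 (SD, n = 4) to 50.04 ± 8.24 CPM (SD, n = 5). Of 9 tested genes of superoxide and peroxide removal, 2 were called higher and 1 lower. The mitochondrial superoxide dismutase Sod2 rose from 63.9 ± 2.04 to 91.5 ± 9.35 CPM (log2 fold change 0.52, edgeR adjusted p = 0.00375). The extracellular Sod3 had 0 to 7 counts per naive library and 4 to 38 per bleomycin library, at 0.701 ± 0.677 and 3.79 ± 2.15 CPM. The Sod3 call was lost without naive replicate 1, 3 or 4, at an edgeR adjusted p of up to 0.0885. The low levels of Gpx3 and Sod3 stand beside the higher mesenchymal marker sums of the bleomycin libraries, whose part in them was not tested.

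Cat, the peroxisomal catalase, went the other way. It fell from 695, 705, 550 and 639 CPM in naive to 265, 329, 424, 397 and 425 CPM in bleomycin libraries, without overlap (log2 fold change -0.82, edgeR adjusted p = 4.60e-04). The 2 lowest Cat values were in bleomycin replicates 1 and 2, the libraries with the lowest AT2 marker sums, and the call held without both.

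Among 12 tested NADPH-producing enzymes, which supply the reducing power that Gsr and Txnrd1 use, 3 were called higher and 2 lower. Of those called higher, Me2 and Mthfd2 passed the low-count filter only with the help of the bleomycin libraries. Taldo1, transaldolase, rose from 52.2 ± 4.14 to 76.4 ± 5.5 CPM (log2 fold change 0.55). The mitochondrial enzymes Me2 and Mthfd2 had 7 to 11 and 3 to 12 counts per naive library and 19 to 52 and 20 to 34 per bleomycin library. Their means were 2.46 ± 0.391 and 1.94 ± 1.17 CPM in naive and 6.14 ± 2.01 and 6.18 ± 1.97 CPM in bleomycin libraries. The Mthfd2 call was lost without naive replicate 1 or 3, at an edgeR adjusted p of up to 0.0708, and the Me2 call without any 1 naive library or bleomycin replicate 2, with no filter on low counts and with limma-voom, at up to 0.1099. Of 8 tested genes of haem breakdown and iron, 1 was called higher.

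Of 18 tested detoxification enzymes, 5 were called higher and 3 lower. Ephx1, the microsomal epoxide hydrolase, rose from 29.5, 36.1, 35.4 and 35.2 CPM to 59.3, 78.0, 70.0, 67.4 and 66.5 CPM (log2 fold change 1.00, edgeR adjusted p = 3.43e-05). The aldo-keto reductase Akr1b8 rose from 16.1 ± 0.967 to 39.0 ± 20.2 CPM (SD, n = 4 and 5). The aldehyde dehydrogenase Aldh1a1 was at 23.5, 28.4, 38.1 and 12.5 CPM in naive and at 73.8, 143, 41.3, 35.0 and 49.1 CPM in bleomycin libraries, so bleomycin replicate 4 lay within the naive range. The highest values were in replicates 1 and 2, the libraries with the lowest AT2 and highest mesenchymal marker sums, whose part in this was not tested. Its log2 fold change of 1.41 (edgeR adjusted p = 0.0085) became 0.96 without replicate 2 and 0.71 without both (0.0487). The carboxylesterase Ces1d fell from 361 ± 22.0 to 182 ± 50.7 CPM (log2 fold change -0.98, edgeR adjusted p = 3.06e-04). Aldh3a1 was at 7.72 ± 1.96 CPM in naive and 3.01 ± 1.93 CPM in bleomycin libraries (edgeR adjusted p = 0.042). Akr1b8, Aldh1a1 and Ces1d have close paralogs, so their counts are uncertain where reads match more than 1 copy. Cbr3, a carbonyl reductase, had 6 to 11 counts per naive library and 18 to 37 per bleomycin library, at 2.5 ± 0.761 and 6.56 ± 3.04 CPM (edgeR adjusted p = 0.0411). The calls of Cbr3 and Aldh3a1 were lost without any 1 naive library and without bleomycin replicate 1, that of Cbr3 also without replicate 4 and with limma-voom, and that of Aldh3a1 also without replicate 2 or 3 and with raw library totals, at edgeR adjusted p-values of up to 0.166 and 0.138.

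With ISRIB, 3 of 103 tested pathway genes were called (2.91%, beside 2.2% of all genes), and all 3 were higher. Besides Slc3a2 they were Txnip, the thioredoxin-interacting protein, and Blvrb, biliverdin reductase B. Txnip rose from 296 ± 22.8 to 385 ± 63.5 CPM (SD, n = 4 each, log2 fold change 0.38, edgeR adjusted p = 0.0373). Blvrb rose from 19.8 ± 1.79 to 25.6 ± 1.7 CPM (SD, n = 4 each, log2 fold change 0.37, edgeR adjusted p = 0.0335). Txnip lost its call without vehicle replicate 1, 2 or 3 or ISRIB replicate 2 or 4, and Blvrb without vehicle replicate 1, 2 or 4 or ISRIB replicate 1, 2 or 4, with edgeR adjusted p-values of up to 0.126 and 0.106. Txnip was also called higher after bleomycin (log2 fold change 0.61, edgeR adjusted p = 0.0327), and its groups overlapped in both comparisons. Blvrb was not called after bleomycin (edgeR adjusted p = 0.548). An antisense gene overlaps 19.4% of the Txnip exon bases.

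**Figure D5:**
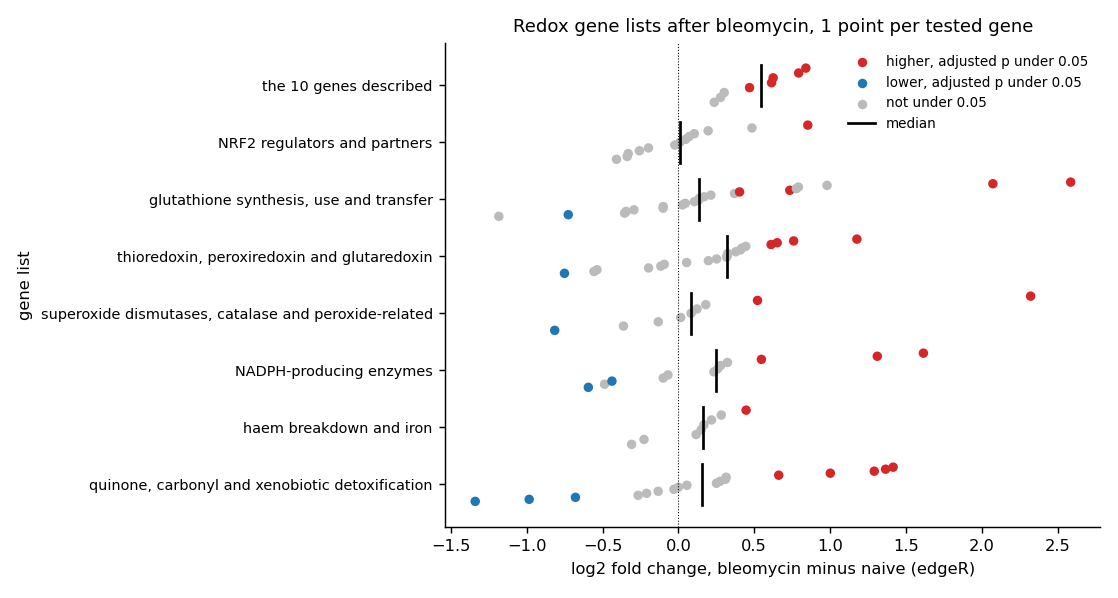
Log2 fold change after bleomycin of the tested genes of the 7 redox lists and of the 10 members, 1 point per gene, with a black line at each list's median. The members' median is 0.54, and the medians of the other lists run from 0.01 for NRF2 regulators to 0.32 for the thioredoxin and peroxiredoxin families.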

How the data were processed

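Deposited tables hold whole-number read counts per Ensembl gene, which the authors made with bcl2fastq 2.19.1, Trimmomatic 0.36, STAR 2.6.0 and HTSeq 0.11.2 on mm10, per the submitters' processing notes. Neither the annotation release nor the strand setting is named there. Per the labels' protocols, poly(A) libraries used 3 ng of RNA and the NEBNext Ultra I kit, and total-RNA libraries 0.35 ng and the SMARTer Pico v2 kit. Ribosomal RNA-like models took 21.2% to 32.5% of total-RNA counts and 0.352% to 0.527% of poly(A) counts and stayed in the library totals.

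Gene IDs were matched to GENCODE M21, which named 42546 of 43430. Each table was fitted on its own with edgeR 4.0.16 (R 4.3.3): filterByExpr with a minimum count of 10 and minimum total of 15, TMM scaling, and the quasi-likelihood test with no covariates, on 4 against 4 and 4 against 5 libraries. Intervals are 95%, and those of summed counts are exact and cover counting error only. The code was tested on simulated data. In the bleomycin design it called 4.08% of genes changed by 0.5 on the log2 scale and 64.6% of those changed by 1. In the ISRIB design these shares were 58.1% and 91.4%. A gene left uncalled, above all in the bleomycin comparison, may therefore still have changed. Alternatives were DESeq2 1.42.0, limma-voom (limma 3.58.1), other scalings and filters, a replicate block, each library left out, and, added after the data were seen, bleomycin replicates 1 and 2 left out together.

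Members and lists were chosen with earlier results of these data known. All 10 members are described whatever their values. Of the pathway lists, every called gene was to be named, or, above 20 calls, the 10 with the lowest p and the 10 with the largest fold change. Like-patterned genes are the 3 with the highest Pearson correlation of log2 CPM (prior count 2) among tested genes of at least 5 CPM.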

Additional observations from a re-analysis of the deposited data

Results flagged for a closer look

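Within each group of 4 or 5 libraries, the highest and lowest values were tested for standing apart from the rest with Dixon's ratio at its 95% critical value, which chance exceeds in about 1 of 20 groups. Of 40 groups of the 10 members, 3 were marked. Hmox1 was at 60.7 CPM in naive replicate 1, and the next naive library was at 44.7 CPM. Nqo1 was at 2.4 CPM in naive replicate 3, with the next at 0.641 CPM, a difference of a few counts. Gsr was at 75.3 CPM in vehicle replicate 2, with the next at 68.2 CPM.

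Of 42 groups of the named pathway genes, 6 were marked. Bleomycin replicate 2 held 3 of these: Akr1b8 at 73.6 CPM against a next value of 39.3, Gsto1 at 22.0 against 7.12, and Prdx4 at 37.2 against 25.8 CPM. Mthfd2 was at 9.59 CPM in bleomycin replicate 4, with the next at 6.14 CPM. Ephx1 was at 29.5 CPM in naive replicate 1, below the next at 35.2 CPM. Slc3a2 was at 185 CPM in ISRIB replicate 2, below the next at 226 CPM and above all vehicle libraries.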

How the results depend on the processing

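After bleomycin, Nfe2l2, Srxn1 and Prdx1 were called in all 18 alternatives, Gsr in 17 and Gclm in 13. The number of members called was 5, and 3 to 5 with 1 library left out (3 without naive replicate 4), while the calls over all genes went from 2304 to between 1554 and 2584. The labels state no pairing by replicate number. Same-numbered libraries deviated together with correlations of -0.11 to 0.085 (ISRIB) and -0.039 to 0.047 (bleomycin). The best match had the same number for 2 of 4 vehicle and 0 of 4 naive libraries. These values cannot exclude that some samples were handled together. With the replicate block 5 members and 2187 genes were called. The members' median log2 fold change was 0.50 to 0.61 with 1 library left out. Scaling by raw totals moved the naive means of Nfe2l2 and Srxn1 to 184 and 13.5 CPM, and shifted the median of all genes by 0.07.

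For ISRIB, 0 members were called with any 1 library left out and with the block, and 1 (Nfe2l2) without the low-count filter and 1 with DESeq2. The calls over all genes, 265, became 648 without the filter, 406 with DESeq2, 277 with the block, and 86 to 269 with 1 library left out (86 without vehicle replicate 1, 102 without vehicle replicate 2, 159 without ISRIB replicate 4); the cause was not tested. Directions turned for uncalled members near 0: Prdx1 to 0.0049 on the log2 scale with raw totals, and, with 1 library left out, Prdx1 from -0.042 to 0.015, Nqo1 from -0.32 to 0.40 and Gclc from -0.071 to 0.12. The members' median ran from -0.01 to 0.13. Replicates of the bleomycin comparison varied more, with a biological coefficient of variation, as edgeR names it, of 21.1% against 7.66%. The 2 tables also differ in kit, RNA input and depth, so the sources of this difference cannot be told apart.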

Other observations

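The genes whose log2 CPM followed the 5 called members most closely over the 9 total-RNA libraries are given as a description, since the libraries fall into 2 conditions and share 1 kit. Among 9203 genes compared, Nfe2l2 was followed by Nans (r = 0.989), which makes sialic acid, and by H2-D1 (0.987) and B2m (0.984), both chains of MHC class I. Prdx1 was followed by the lysosomal protease Ctsb (0.981), Lpcat3 (0.974) and Stt3b (0.974). Gsr was followed by the glycolytic enzyme Aldoa (0.984), Cyb5r3 (0.968) and Serpinf1 (0.967). Srxn1 was followed by Calu (0.976), Actr3 (0.975) and Aco1 (0.964), and Gclm by Arg2 (0.976), Lmf2 (0.968) and Atp5d (0.968). No gene appeared under more than 1 member, and none of the 15 was itself a member.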
